A study of Mus musculus with 6 samples.

Results

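The receptors for platelet-derived growth factor (PDGF) and the TAM receptors (Tyro3, Axl and Mertk) were examined together with their ligands, as 10 genes: Pdgfra, Pdgfrb, Axl, Mertk, Tyro3, Pdgfa, Pdgfb, Pdgfc, Pdgfd and Gas6. A gene was taken where a probe set of the array was annotated to it and to no other gene. Each of the 10 genes had 1 such probe set, so 10 of the 22180 genes measured are described. They were set by name and not by their values, although earlier results of these data were known when they were chosen. The tested samples were 3 mammary tumors (numbers 23, 24 and 25) from Trp53L/L;Brca1L/L females, taken several months after injection of Ad-K8-Cre into the ducts. This adenovirus carries Cre driven by a keratin 8 promoter. They were set against 3 samples of wild-type luminal mammary epithelial cells (replicates 1, 2 and 4) from Rosa26-Stop-YFP females, which received the same virus and whose YFP+ cells were sorted 10 to 14 days later. Both groups therefore had the virus, the wild-type arrays came from separate mice, and ages are not stated. Cre from this virus acts in cells that use the keratin 8 promoter, and the labels mention a sort for wild-type samples but not for tumors, so tumor RNA can also hold RNA of stroma, vessels and immune cells. The labels do not say that the tumors came from separate animals, and p-values then measure only the spread between these samples.

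PDGF ligands are secreted dimers that bind the receptor tyrosine kinases PDGFR-alpha and PDGFR-beta, which many fibroblasts, pericytes and smooth muscle cells carry on their surface. In the mammary gland, as in many epithelial organs, the ligands are typically made by epithelium or endothelium and the receptors by the surrounding mesenchyme. The TAM receptors bind Gas6 and protein S, which bridge them to phosphatidylserine on dying cells; Mertk is best known for uptake of dead cells by macrophages, and Axl for its presence on mesenchymal-like tumor cells and fibroblasts.

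Promoter sequence is shown for both genes of the TAM family that rose in tumors, Axl and Gas6, and for Mertk, a receptor of that family whose groups overlapped, so that the regions before their start sites can be compared. The sequences are RefSeq's, build GRCm38.p6, 5′ to 3′ on the strand of the gene, and hold the bases that lie upstream of the annotated gene within a window of 250 bases before a RefSeq start site. Capitals mark matches on either strand to GGAATG, the core bound by TEAD factors, or to GGGCGG, the GC box bound by Sp1 (read as CCGCCC on the other strand).
Axl, chr7:25788925-25788983, minus strand: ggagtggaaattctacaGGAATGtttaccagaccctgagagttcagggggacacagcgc
Gas6, chr8:13494536-13494785, minus strand: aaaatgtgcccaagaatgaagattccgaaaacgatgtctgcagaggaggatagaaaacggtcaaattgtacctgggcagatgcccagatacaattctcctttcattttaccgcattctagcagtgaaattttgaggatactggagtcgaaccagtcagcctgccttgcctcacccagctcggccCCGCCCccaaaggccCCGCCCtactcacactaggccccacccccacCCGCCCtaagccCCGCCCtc
Mertk, chr2:128698665-128698914, plus strand: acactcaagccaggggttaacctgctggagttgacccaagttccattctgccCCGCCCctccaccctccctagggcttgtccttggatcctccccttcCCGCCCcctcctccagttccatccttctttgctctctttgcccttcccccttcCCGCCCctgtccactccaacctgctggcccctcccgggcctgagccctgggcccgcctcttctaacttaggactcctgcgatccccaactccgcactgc
For Axl only 59 of the 250 bases lie before the annotated gene. The Axl window held 1 match to GGAATG, and 1 GC box in the part not printed. The Gas6 window held 4 GC boxes and that of Mertk 3. GGAATG was found in 12.6% of the 32851 promoter windows of that length and the GC box in 32.7%. Of the 8 genes of the group with a window in the RefSeq table, 2 held GGAATG (Pdgfc and Axl) and 5 held a GC box (Pdgfa, Axl, Mertk, Tyro3 and Gas6). The AP-1 motif TGANTCA, present in 6.75% of all windows, and the hypoxia core ACGTG, in 16.6%, were in none of the 8. A match is a description of letters and not evidence that a factor binds.

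The values are log2 expression, 1 per gene and array, as the authors deposited them, and a difference of 1 is a 2-fold change. Levels of different genes are not compared, since each probe set has its own response. Of the 22180 genes, 867 passed limma's test (adjusted p under 0.05 after Benjamini-Hochberg adjustment over all genes), 559 higher and 308 lower in tumors, and the median difference of all genes was -0.12. Before adjustment, 5850 of the 22180 genes had a p under 0.05 in limma, which is the background for unadjusted counts below. As a mark for background, the 95th percentile of 1105 olfactory receptor genes lay at 3.24 to 3.45 on tumor arrays and at 3.70 to 3.86 on wild-type arrays. Of the targeted genes, Brca1 measured 4.10, 3.74 and 3.79 in tumors 23, 24 and 25, against 2.81, 2.99 and 2.99 in wild-type replicates 1, 2 and 4, and Trp53 was not analysed here. Brca1 passed as higher in tumors, by 0.94 with an adjusted p of 0.044 in limma, with all 3 wild-type values under the background mark, and no set without 1 array kept the call (0.051 to 0.125 in limma). The files do not place the Brca1 probes relative to the floxed exons, so the gene checks nothing about the labels. All 12 luminal epithelial markers lay above the background mark on at least 1 wild-type array and 1 tumor array. Their mean ranged over 6.76 to 7.97 on tumor arrays and 8.46 to 9.08 on wild-type arrays, with 1 of 12 passing, Cd24a, a surface glycoprotein, which fell by 1.80 and kept its call without wild-type replicate 2 but not without any other single array (adjusted p up to 0.113 in limma).

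Of the 10 genes, 3 rose in tumors, Pdgfrb, Axl and Gas6, none fell, and 7 did not pass the test. Among all genes, 2.52% passed upward and 1.39% downward, or 3.91% in either direction. The PDGF receptor Pdgfrb differed the most, by 2.56 ± 0.43 (SE) log2 units or 5.89-fold, followed in size by Pdgfra, at 1.78 ± 0.50, which did not pass. Axl and its ligand Gas6 were higher by 1.70 ± 0.33 and 1.64 ± 0.22. The groups did not overlap for these 4 genes, with every tumor above every wild-type array, as for 14.0% of all genes; in 22.4% the tumors were all lower, and in 36.4% the groups were apart in either direction. The median difference was 0.54 over the 10 genes, 8 of which had a higher mean in tumors. For all genes it was -0.12, but this background depended on brightness. Among the 7726 genes with a mean of at least 5 over the 6 arrays, the median difference was 0.32 and 649 passed upward. When any 1 array was left out, between 0 and 2 of the 10 genes passed in limma: 1 without tumor 23 (Pdgfrb), 2 without tumor 24 (Pdgfrb and Gas6), and 0 without tumor 25 or without wild-type replicate 1, 2 or 4. Of all genes, 0.64%, 5.41% and 1.69% passed in either direction without tumor 23, 24 and 25. Without wild-type replicates 1, 2 and 4 the shares were 0.622%, 0.766% and 0.325%, so calls over all genes also fell in each set but that without tumor 24. In each of these 6 sets, 4 of the 10 genes (Pdgfra, Pdgfrb, Axl and Gas6) had an unadjusted p under 0.05 in limma. With all 6 arrays, 4 of the 10 genes and 5850 of all 22180 genes had one.

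**Figure D1:**
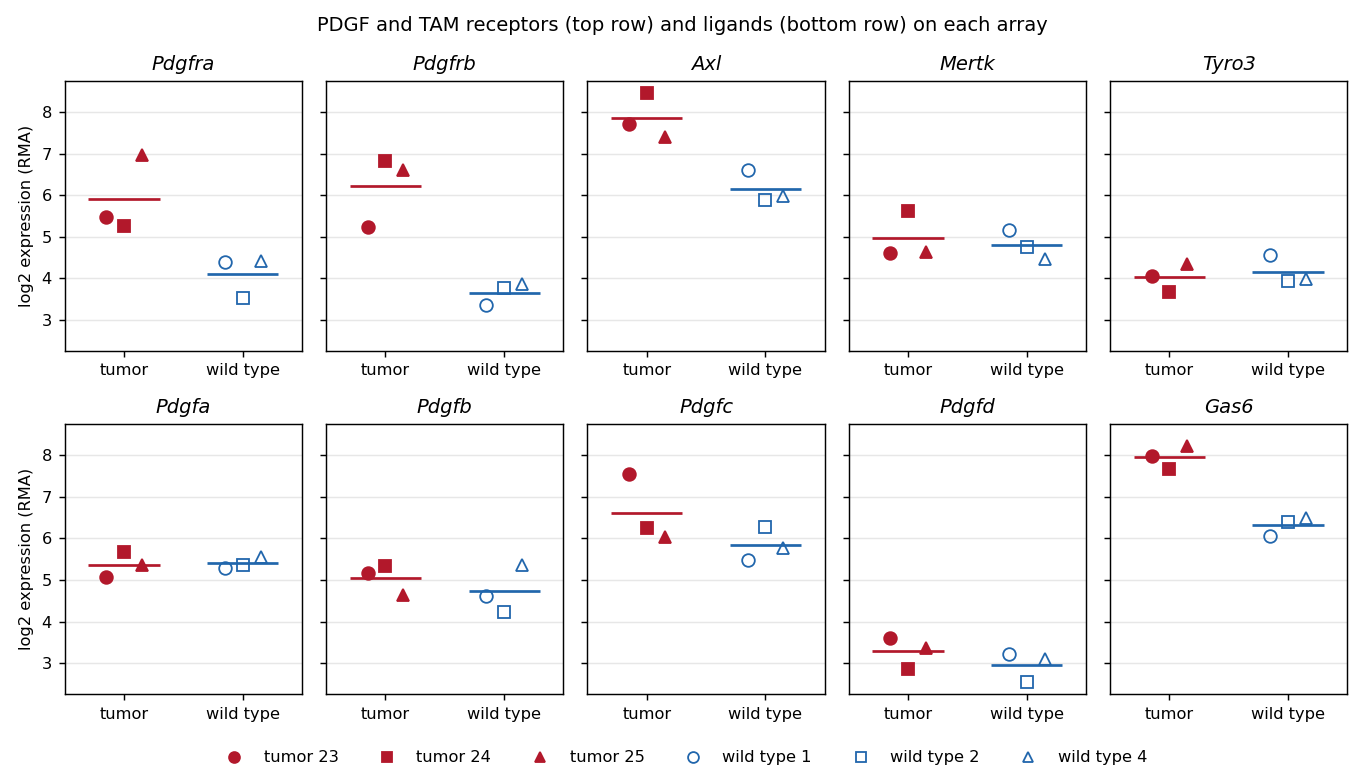
Log2 expression (vertical axes) of the 5 receptors and the 5 ligands on each array, with tumors in red and wild-type cells in blue; points are single arrays and lines are group means over 3 arrays. Every tumor lies above every wild-type array for Pdgfra, Pdgfrb, Axl and Gas6, and the groups overlap for the other 6 genes.

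Among the PDGF receptors, Pdgfrb encodes PDGFR-beta, the receptor that recruits pericytes to vessels. It measured 5.24, 6.82 and 6.60 in tumors 23, 24 and 25, against 3.37, 3.76 and 3.86 in wild-type replicates 1, 2 and 4. Tumor 23 was the lowest of the tumors and still lay 1.38 above the highest wild-type array. The rise had a 95% interval of 1.53 to 3.59 and an adjusted p of 0.035 in limma. On 2 of the 3 wild-type arrays Pdgfrb lay under the background mark, so the fold is a difference of normalized values whose lower end is not told from background. The adjusted p in limma was 0.086 without tumor 25, 0.109 without wild-type replicate 1, 0.098 without replicate 2 and 0.106 without replicate 4.

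Pdgfra encodes PDGFR-alpha, a receptor of fibroblast progenitors in many tissues. Its values were 5.47, 5.27 and 6.97 in tumors 23, 24 and 25, against 4.40, 3.53 and 4.42 in wild-type replicates 1, 2 and 4. Tumor 25 stood above the other two tumors, and the lowest tumor lay 0.84 above the highest wild-type array. The difference of 1.78 had a 95% interval of 0.59 to 2.98 and an adjusted p of 0.098 in limma, so Pdgfra was not among the genes that passed. With the test limited to genes of a mean of at least 5, it passed with an adjusted p of 0.042 in limma. That mean is over all 6 arrays, and Pdgfra met it through its tumor mean of 5.90, with a wild-type mean of 4.12. The pass under this filter is therefore no separate support for a rise. Its difference ranged from 1.25 without tumor 25 to 2.10 without tumor 24. The changes of the pair could not be told apart: Pdgfrb minus Pdgfra within an array averaged 0.32 ± 1.07 (SD, n = 3) in tumors and -0.46 ± 0.63 (SD, n = 3) in wild-type cells, with p = 0.40 in a two-sided exact permutation test.

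None of the 4 PDGF ligand genes passed. Pdgfc, whose product must be cut by a protease to become active and mainly binds PDGFR-alpha, measured 7.55, 6.25 and 6.02 in tumors 23, 24 and 25, against 5.48, 6.29 and 5.77 in wild-type replicates 1, 2 and 4. Tumor 23 alone lay above all wild-type arrays. The difference was 0.76, with a 95% interval of -0.29 to 1.82 and an adjusted p of 0.30 in limma. Pdgfa, a ligand of PDGFR-alpha made by many epithelia, was the gene of the group with the smallest difference, at 5.07, 5.68 and 5.36 in tumors 23, 24 and 25, against 5.29, 5.36 and 5.56 in wild-type replicates 1, 2 and 4. Its difference of -0.04 had a 95% interval of -0.54 to 0.47, which leaves room for changes of less than 2-fold in either direction.

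Pdgfb, a ligand of both receptors and the one that endothelial cells use to attract pericytes, measured 5.16, 5.33 and 4.65 in tumors 23, 24 and 25, against 4.63, 4.23 and 5.35 in wild-type replicates 1, 2 and 4. The groups overlapped fully, and the difference of 0.31 had a 95% interval of -0.50 to 1.12. Pdgfd, a ligand of PDGFR-beta that also needs a cut by a protease, was at 3.61, 2.87 and 3.37 in tumors 23, 24 and 25, against 3.22, 2.56 and 3.11 in wild-type replicates 1, 2 and 4. It lay under the background mark on 2 tumor arrays and on all 3 wild-type arrays, so that its difference of 0.32 is one between values near background. Tests of unequal change between ligands gave p = 0.50 for Pdgfb minus Pdgfa, p = 0.50 for Pdgfd minus Pdgfc and p = 0.30 for Pdgfc minus Pdgfa in two-sided exact permutation tests.

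**Figure D2:**
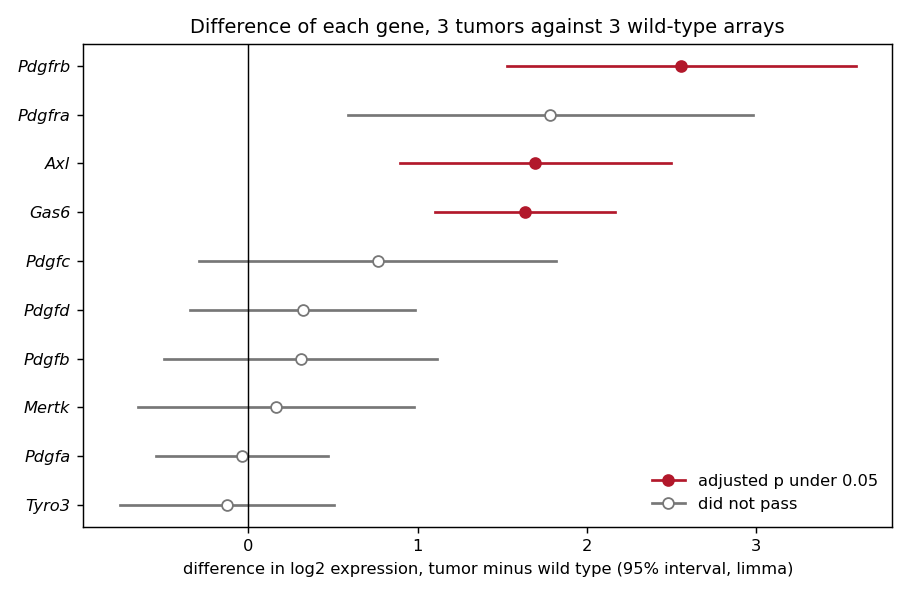
Difference in log2 expression, tumor minus wild type (horizontal axis), for each of the 10 genes, with the 95% interval from limma; filled red points passed at an adjusted p under 0.05 and open grey points did not. The intervals of Pdgfrb, Pdgfra, Axl and Gas6 lie above 0, and those of the other 6 genes cross it.

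Of the TAM receptors, Axl measured 7.72, 8.45 and 7.40 in tumors 23, 24 and 25, against 6.61, 5.89 and 5.99 in wild-type replicates 1, 2 and 4. Tumor 24 was the highest, and the lowest tumor lay 0.79 above the highest wild-type array. The rise of 1.70, or 3.24-fold, had a 95% interval of 0.89 to 2.50 and an adjusted p of 0.048 in limma. It sat close to the threshold: no set that left out an array kept the call, with adjusted p of 0.053 (without tumor 24) to 0.136 (without wild-type replicate 4) in limma. The call was also lost when the arrays were scaled in another way, where limma gave 0.083 for a second quantile normalization (difference 1.50), 0.090 for cyclic loess (1.49) and 0.075 for centring on housekeeping genes (1.08).

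Mertk, the TAM receptor of phagocytes, did not pass. It measured 4.62, 5.63 and 4.64 in tumors 23, 24 and 25, against 5.17, 4.76 and 4.46 in wild-type replicates 1, 2 and 4. Tumor 24 again stood highest and the other two tumors lay within the wild-type range. The difference was 0.16, with a 95% interval of -0.65 to 0.98 and an adjusted p of 0.76 in limma. Tyro3, the TAM receptor best known from the nervous system, measured 4.06, 3.68 and 4.35 in tumors 23, 24 and 25, against 4.56, 3.93 and 3.99 in wild-type replicates 1, 2 and 4. Its groups overlapped, and its difference of -0.13 had a 95% interval of -0.76 to 0.50.

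The TAM receptors were therefore set against each other within each array. This removes a shift shared by all genes of an array, but not one that depends on brightness. Axl minus Mertk was 3.10, 2.82 and 2.76 in tumors 23, 24 and 25, against 1.43, 1.13 and 1.53 in wild-type replicates 1, 2 and 4. The groups did not overlap, and the tumor mean exceeded the wild-type mean by 1.53. Axl minus Tyro3 was 3.66, 4.77 and 3.04 in tumors 23, 24 and 25, against 2.05, 1.95 and 2.00 in wild-type replicates 1, 2 and 4, a change of 1.82 with no overlap. Both reached p = 0.10 in the two-sided exact permutation test, the smallest that 3 against 3 arrays allow, and 0.40 after adjustment over the 8 pairs tested. Mertk minus Tyro3 changed by 0.29 with p = 0.90 in the same exact test.

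Gas6, a vitamin K-dependent ligand that binds all 3 TAM receptors and Axl most tightly, measured 7.99, 7.66 and 8.22 in tumors 23, 24 and 25, against 6.05, 6.40 and 6.50 in wild-type replicates 1, 2 and 4. The 3 tumors lay close together (SD 0.28), and the lowest was 1.16 above the highest wild-type array. The rise of 1.64, or 3.11-fold, had a 95% interval of 1.10 to 2.17 and an adjusted p of 0.022 in limma. Of the 10 genes this was the smallest adjusted p. Without single arrays it was 0.023 (tumor 24), 0.052 (tumor 25), 0.065 (wild-type replicate 2), 0.066 (tumor 23), 0.071 (replicate 1) and 0.074 (replicate 4) in limma. Gas6 and Axl were not told apart in the size of their change, with Gas6 minus Axl within arrays at 0.10 ± 0.82 (SD, n = 3) in tumors and 0.16 ± 0.62 (SD, n = 3) in wild-type cells, and p = 1 in a two-sided exact permutation test. The array that was highest differed between them: Axl peaked in tumor 24, where Gas6 was lowest of the tumors.

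No single tumor carried all the high values. Tumor 24 held the highest tumor value of Pdgfrb, Axl, Mertk, Pdgfa and Pdgfb, tumor 25 that of Pdgfra, Gas6 and Tyro3, and tumor 23 that of Pdgfc and Pdgfd. Over the 10 genes the median SD between tumors was 0.46 and that between wild-type arrays 0.36, while over all genes these were 0.28 and 0.27. Pdgfra and Pdgfrb had the largest SDs in tumors, 0.93 and 0.86.

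Marker lists of the cell types known to carry these receptors were read on the same arrays. In bulk RNA, fewer cells of a type and less RNA per cell cannot be told apart. Of 12 fibroblast markers, 0 passed in limma in either direction, 4 had an unadjusted p under 0.05, and the median difference was 0.41. Their mean level was 6.26, 6.69 and 4.91 in tumors 23, 24 and 25, and wild-type arrays lay between 5.49 and 6.04. In tumor 25, where Pdgfra was highest and Pdgfrb measured 6.60, the fibroblast mean lay below every wild-type array. The part of fibroblasts in the receptor values was not tested. The members of that list with the largest differences were the matrix genes Dcn, at 9.16, 7.52 and 7.11 in tumors against 10.10, 11.11 and 10.87 in wild-type cells, and Postn, at 9.18, 10.59 and 9.06 in tumors against 8.22, 6.12 and 7.53 in wild-type cells. The count of 0 depended on the setting: Dcn, with an adjusted p of 0.052 in limma, passed downward under 7 of 15 alternatives, all 3 scalings among them, and Postn upward under 2. With housekeeping centring 4 of the markers passed downward. No fibroblast marker lay under the background mark on all arrays of a group. The 12 pericyte and mural markers had a mean of 4.90 to 5.68 in tumors and 4.90 to 5.15 in wild-type cells. Of them, Myh11, the smooth muscle myosin, fell by 1.40 (a call kept without tumor 24 but no other single array, at up to 0.093 in limma) and 11 did not pass, and Vtn lay under the background mark on all 6 arrays. In this list 6 markers had a higher and 6 a lower mean in tumors, with a median difference of 0.08. In limma 4 had an unadjusted p under 0.05. The groups were apart for 4 of the 12, with tumors higher for 2 and lower for 2, against 36.4% of all genes in either direction. Tumor 23 alone exceeded the wild-type range for the mean of this list. Des, an intermediate filament gene of muscle that is in the list, measured 9.96, 3.97 and 4.92 in tumors 23, 24 and 25, against 4.56, 3.99 and 4.05 in wild-type replicates 1, 2 and 4, and tumor 23 also had the highest mean of the skeletal muscle markers. Without Des, an alternative added after its values were seen, the list mean was 5.29, 4.99 and 5.06 in tumors 23, 24 and 25, and wild-type arrays lay between 4.98 and 5.20.

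Of 12 macrophage markers, 6 rose in tumors and none fell: Csf1r, Adgre1, Cd68, C1qa, C1qb and C1qc. The list mean was 6.63, 6.26 and 5.96 in tumors 23, 24 and 25, and wild-type arrays lay between 4.11 and 4.77, with a median difference of 1.64. C1qa and C1qb, subunits of complement C1q, rose by 4.09 and 4.03 and kept their calls without any single array; Csf1r, Adgre1, C1qc and Cd68 each lost theirs in 2 to 6 of the 6 sets (adjusted p up to 0.109 in limma), and Cd68 also after a second quantile normalization and after cyclic loess. On every wild-type array Adgre1, Fcgr1, C1qc, Mrc1 and Itgam were under the background mark. The macrophage list was thus higher in the same 3 tumors as Axl and Gas6, and their part in those results was not tested. The tumors ran 23, 24, 25 from high to low in the macrophage list, 24, 23, 25 in Axl and 25, 23, 24 in Gas6. Of the 12 endothelial markers, Vwf, a clotting protein stored in endothelial cells, fell by 1.01 (a call lost in 5 of the 6 sets without 1 array, with the filter at the median gene and with the trended robust prior, at up to 0.099 in limma) and 11 did not pass, with a mean of 4.28 to 5.02 in tumors and 4.32 to 4.91 in wild-type cells. The 7 platelet and megakaryocyte markers measured, platelets being a store of PDGF, gave no call in limma, 0 at an unadjusted p under 0.05, and had a mean of 3.54 to 3.85 in tumors and 3.54 to 3.68 in wild-type cells. Their largest differences were Pf4, at 1.25, and Gp9, at -0.50.

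**Figure D3:**
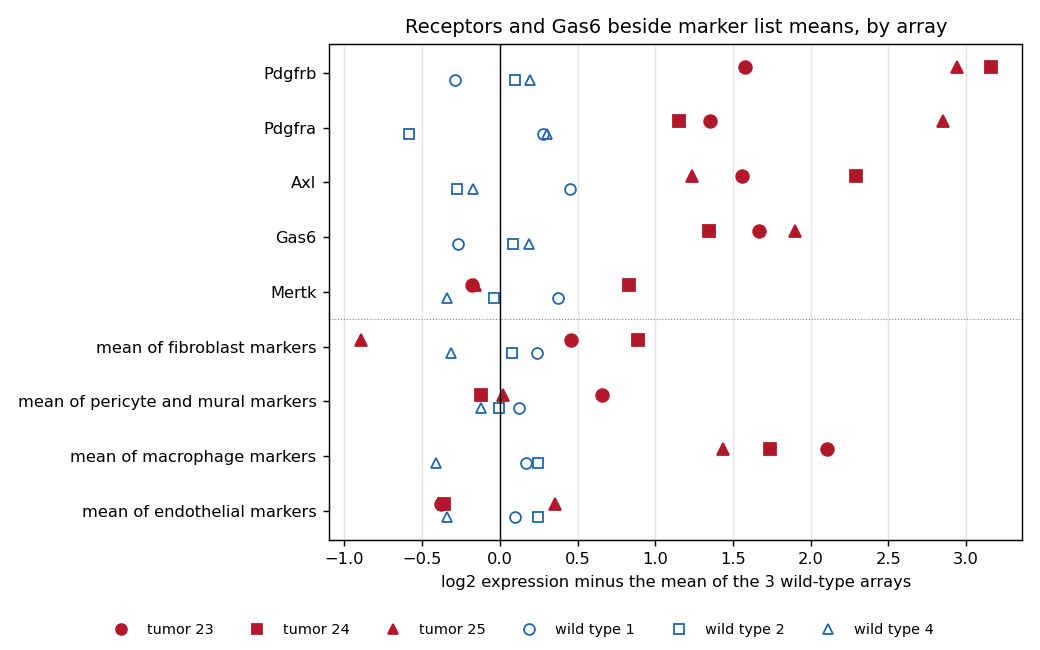
Log2 expression on each array minus the mean of the 3 wild-type arrays (horizontal axis) for 5 genes and for the means of 4 marker lists, with tumors in red above and wild-type arrays in blue below. Tumor 25 (triangle) lies below all wild-type arrays for the fibroblast list and far above them for Pdgfrb and Pdgfra, while all 3 tumors lie above the wild-type arrays for the macrophage list. Which cells the receptor RNA came from was not tested.

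Around the PDGF receptors, 10 genes of ligand processing and co-receptors were measured, of which 1 rose and none fell. Their median difference was 0.92, against -0.12 for all genes and 0.32 for genes with a mean of at least 5. The gene that rose was Nrp2, a co-receptor for semaphorins and VEGF related to the PDGF co-receptor Nrp1, by 2.19 ± 0.23 (SE), and limma's adjusted p was 0.014. It measured 6.60, 7.15 and 7.10 in tumors 23, 24 and 25, against 4.99, 4.48 and 4.82 in wild-type replicates 1, 2 and 4. Of 15 alternatives it lost the call in 1, without wild-type replicate 4, at 0.067 in limma. Under the filter of a mean of at least 5, Nrp2 qualified through its tumor mean of 6.95, its wild-type mean being 4.76. That pass is no separate support.

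Of 19 intracellular effectors of the receptors, 1 rose and 1 fell, and the list median was 0.38. Pik3r2, a regulatory subunit of phosphoinositide 3-kinase, rose by 1.88 ± 0.22 (SE), and limma's adjusted p was 0.016. The adaptor Grb7 fell by 1.54 ± 0.27 with an adjusted p of 0.039 in limma. Leaving out tumor 23, wild-type replicate 1 or replicate 4 ended the call of Pik3r2, at up to 0.065 in limma, and leaving out any array but tumor 24 ended that of Grb7, at up to 0.115 in limma. None of 14 brakes on receptor kinases, such as ubiquitin ligases, phosphatases and Sprouty proteins, passed in limma (3 at an unadjusted p under 0.05), and their median was -0.13. The phosphatase Ptprj measured -0.89 ± 0.24 (SE) and the receptor inhibitor Lrig1 1.14 ± 0.42, with adjusted p of 0.094 and 0.157 in limma.

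The relatives of the PDGF receptors in the same class of receptor kinases were read beside them. Of 6 such receptors and ligands measured, 2 rose and none fell, with a median of 0.71. Csf1r, the receptor of macrophage growth, rose by 2.67 ± 0.30 (SE), at 6.79, 6.58 and 6.33 in tumors 23, 24 and 25, against 4.01, 4.37 and 3.30 in wild-type replicates 1, 2 and 4. Kit, the stem cell factor receptor of luminal progenitors, rose by 2.42 ± 0.45. Their adjusted p were 0.016 and 0.042 in limma. The call of Csf1r ended without tumor 23 or wild-type replicate 1, at up to 0.058, and that of Kit without any array but tumor 24, at up to 0.110.

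Around the TAM receptors, none of 9 genes for other ligands, ligand maturation and receptor shedding passed in limma (5 at an unadjusted p under 0.05), and their median was -0.04. Pros1, which encodes protein S, the other main ligand of Tyro3 and Mertk, measured 5.20, 5.05 and 6.69 in tumors 23, 24 and 25, against 4.61, 3.98 and 4.86 in wild-type replicates 1, 2 and 4. In limma its difference of 1.17 ± 0.48 (SE) reached an adjusted p of 0.186, although the groups did not overlap. Lgals3, a galectin reported as a Mertk ligand, measured -1.29 ± 0.38 with an adjusted p of 0.104 in limma.

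Among 16 further genes for the clearance of dead cells, 2 rose and 1 fell, with a median of 0.12. Elmo1, part of the engulfment machinery that activates Rac1, rose by 1.98 ± 0.25 (SE), and all 3 wild-type values were under the background mark, so that the size is a difference of normalized values whose lower end is not told from background. The integrin subunit Itgav, which pairs with beta subunits to bind the bridging protein Mfge8, fell by 2.00 ± 0.30. It measured 6.01, 6.95 and 6.74 in tumors 23, 24 and 25, against 8.70, 8.24 and 8.76 in wild-type replicates 1, 2 and 4. Its partner Itgb5, named after its values were seen, rose by 1.21 ± 0.21. The adjusted p of Elmo1, Itgav and Itgb5 were 0.018, 0.026 and 0.038 in limma. Leaving out tumor 23 or wild-type replicate 1, 2 or 4 ended the call of Elmo1 (up to 0.078 in limma), leaving out any array but tumor 24 that of Itgav (up to 0.097), and leaving out any array that of Itgb5 (up to 0.108). Itgb5 passed under 5 of 15 alternatives and also lost its call under all 3 other scalings and the trended robust prior.

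For each of the 3 genes that rose, the 3 genes with the most similar course over the 6 arrays were found by the root mean square (RMS) difference of log2 values after each gene was centred on its own mean. Closest to Pdgfrb were Myo5a, Zfp280c and Zfp932, at RMS differences of 0.30, 0.30 and 0.31. Closest to Axl were Anks3, Slc6a6 and 2700038G22Rik, at 0.12, 0.16 and 0.16. Closest to Gas6 were Pdrg1, Chst12 and Zw10, at 0.10, 0.10 and 0.12. With 6 arrays in 2 groups, such likeness mostly reflects a similar gap between groups.

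**Figure D4:**
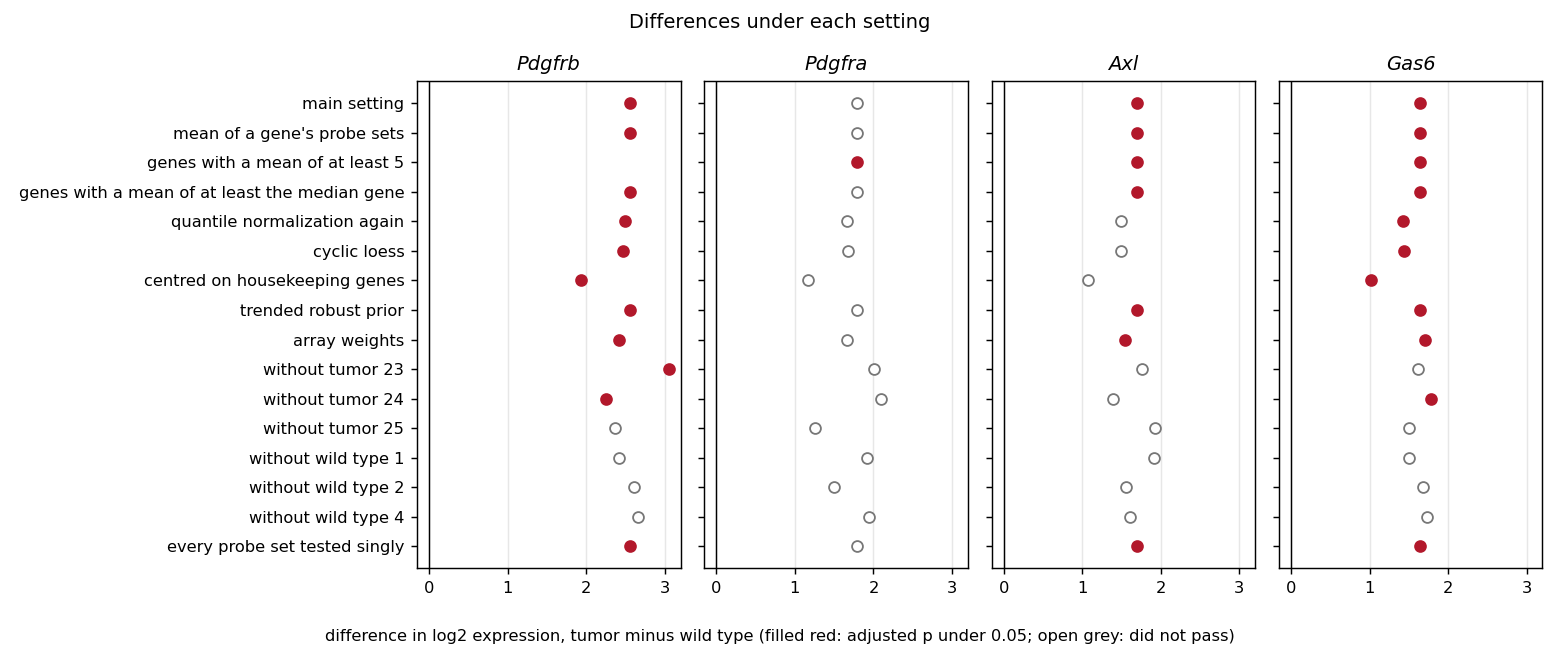
Difference in log2 expression, tumor minus wild type (horizontal axis), of Pdgfrb, Pdgfra, Axl and Gas6 under the main setting and 15 alternatives (rows); filled red points passed at an adjusted p under 0.05 in limma and open grey points did not, and Pdgfrb has no point where only genes with a mean of at least 5 were kept. All points lie above 1, the lowest being Gas6 at 1.02 after centring on housekeeping genes.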

How the data were processed

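Total RNA of 3 tumors and 3 samples of sorted wild-type cells was amplified and biotin-labelled for 1-colour arrays, per the labels' protocols. The authors deposited log2 expression values, made with RMA and oligo per the submitters' processing notes; their versions, detection calls and scan dates were not used here, so no batch could be tested. Precision is limited by how few arrays there are. Gene names came from the platform annotation: of 41345 probe sets, 23521 named 1 gene, and 23328 of these were matched by Entrez identifier to RefSeq (GRCm38.p6). The probe set with the highest mean stood for each of 22180 genes. All columns of the table belonged to a sample.

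The 2 groups were compared in limma 3.58.1 (R 4.3.3; lmFit and eBayes, no covariates, two-sided), Benjamini-Hochberg adjustment over 22180 genes and a threshold of 0.05; an adjusted p under an alternative is from limma refitted on the arrays and genes of that alternative. The step was tested on simulated data. Differences between 2 genes within arrays were tested by exact permutation over samples, adjusted over the pairs. The members, the 16 gene lists and the background mark were chosen with earlier results of these data known. Named genes are the 10 members, up to 4 called genes with the largest change per list (2 where none was called), and the 3 genes most like each called member; Brca1 is named as a targeted gene; Itgb5, Adgre1, C1qc, Des and the genes named for lying under the background mark (Fcgr1, Mrc1, Itgam and Vtn) fall outside this rule and were chosen after their values were seen. Alternatives were 2 filters on dim genes, 2 ways to treat several probe sets, 3 scalings, a trended robust prior, array weights and leaving out each array.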

Additional observations from a re-analysis of the deposited data

How the results depend on the processing

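Of the 10 genes, Pdgfrb passed under 10 of its 14 alternatives, Gas6 under 10 of 15, Axl under 6 of 15 and Pdgfra under 1 of 15. None of the 4 changed direction. For Pdgfrb these passes include the filter at the median gene, which it met through its tumor mean of 6.22. Its wild-type mean of 3.66 lay under the gene medians of the wild-type arrays (3.86 to 3.93). That pass is no separate support for a rise. The count of genes that passed was 2 or 3 under all alternatives other than leaving out an array, where it was 0 to 2. Fewer arrays also leave fewer degrees of freedom, and the cause was not tested. Of the 6 genes that passed under none of the alternatives, 5 changed sign under at least 1 and Pdgfc under none. Centring on housekeeping genes gave -0.31 for Pdgfb, -0.30 for Pdgfd and -0.46 for Mertk. This scaling moved the median difference of all genes to -0.74, by -0.62, because the mean of the 13 housekeeping genes was higher in tumors. That mean was 8.09 to 8.68 on tumor arrays, against 7.67 to 7.97 in wild-type cells. Of the 13 measured, 11 had a higher mean in tumors and 2 a lower one. Relative to that shift Pdgfrb, at 1.94, and Gas6, at 1.02, still passed in limma. Quantile normalization again and cyclic loess moved the median by 0.10 and 0.15. Leaving out single arrays gave -0.19 to 0.11 for Pdgfa, -0.17 to 0.35 for Mertk and -0.29 to 0.072 for Tyro3. Over all genes, 559 rose and 308 fell (64.5% higher); array weights gave 854 and 470, housekeeping centring 548 and 6975 (7.28% higher), and leaving out single arrays 30 to 904 higher and 42 to 296 lower. The pathway lists without the 10 genes held 6 higher and 5 lower calls, with 26 lower after housekeeping centring, and 1 to 9 higher and 2 to 4 lower when single arrays were left out. The share of higher calls was 55.7% after quantile normalization again and 57.2% with a trended robust prior. All 8 comparisons of paired genes within arrays moved by less than the SD between tumors of that pair under the alternatives run. Some moved by more than the SD between wild-type arrays, and some changed sign. Without tumor 24, for example, the differences of Mertk and Tyro3 were -0.17 and 0.047, in reversed order. No paired analysis was possible because the groups share no replicate numbers. Ptprj and Lgals3 passed only after housekeeping centring (adjusted p of 0.020 and 0.021 in limma). Genes near background, above all Pdgfd, are limited by the signal.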

Other observations

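Early growth response genes, which growth factor receptors are known to induce quickly in many cells, were lower in tumors for 3 of 13 measured, and none was higher by the test. Fosb, an AP-1 subunit, fell by 5.10 ± 0.38 (SE), at 4.21, 3.46 and 3.77 in tumors 23, 24 and 25, against 8.15, 9.27 and 9.34 in wild-type replicates 1, 2 and 4. Fos fell by 2.41 ± 0.21 and the phosphatase gene Dusp1 by 1.61 ± 0.28, with adjusted p of 0.0089 and 0.037 in limma. Fos and Fosb passed under all 15 alternatives, and Dusp1 lost its call when any single array was left out, at up to 0.109 in limma. Under the filter of a mean of at least 5, Fos and Fosb qualified through wild-type means of 6.42 and 8.92. Their tumor means were 4.01 and 3.82, so those passes are no separate support. The list median was -0.76, against -0.12 for all genes, and its mean was 5.69 to 6.19 in tumors and 6.77 to 7.27 in wild-type cells. Only the wild-type samples are labelled as sorted, so tumor state and sample handling cannot be told apart for these genes. Receptor signalling was not tested.

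Of 12 skeletal muscle markers, 0 passed in limma, 3 had an unadjusted p under 0.05, and their median difference was 2.54. Without tumor 24, Atp2a1 and Mylpf passed, with adjusted p of 0.023 and 0.037 in limma. The mean of the list was 8.34, 3.51 and 5.70 in tumors 23, 24 and 25, and wild-type arrays lay between 3.42 and 3.59. Atp2a1, the calcium pump of muscle, measured 10.43, 3.32 and 7.70 in tumors 23, 24 and 25, against 3.31, 3.15 and 2.78 in wild-type replicates 1, 2 and 4. Mylpf, a myosin light chain, measured 9.16, 2.33 and 5.86 in tumors 23, 24 and 25, against 2.34, 2.44 and 2.11 in wild-type replicates 1, 2 and 4. Tumor 24, within the wild-type range for this list, held the highest Axl and Pdgfrb. Of 9 basal epithelial markers measured, Myh11 fell and 8 did not pass, with a mean of 5.65 to 6.71 in tumors and 5.61 to 6.09 in wild-type cells. Of 13 housekeeping genes, Gapdh rose by 1.08 ± 0.20 (SE; limma's adjusted p 0.044), and 12 did not pass. That call was kept under 4 of 15 alternatives; it was lost in 5 of the 6 sets without 1 array, with the mean of probe sets, both filters on dim genes, quantile normalization again, housekeeping centring and the trended robust prior, at up to 0.209 in limma over all alternatives.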
